A study of Mus musculus with 16 samples.

Results

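The p53 target and apoptosis genes described here are Mdm2, Cdkn1a, Rrm2b, Sesn1, Sesn2, Zmat3, Bbc3, Bax and Apaf1. They were chosen by name as 9 genes of the p53 response. Each is represented by the 5000 bp window around a transcription start site (TSS) whose midpoint lay nearest the gene's TSS and within 650 bp, together with the accessible regions inside that window. All 9 genes had a window, of 30769 genes with one, and the 9 windows held 15 of the 127646 accessible regions. The assay was ATAC-seq, which tags open DNA with a transposase, and the cells were mouse embryonic stem cells of the genotype FOXD3-iKO kept in L2i medium. FOXD3 is a forkhead transcription factor of pluripotent cells. The tested cells received 4HT (hydroxytamoxifen), which induces FOXD3 depletion, and the control cells of the same genotype received ethanol (EtOH), both with a treatment time of 24 h. DAPI staining of DNA was used to sort both arms into the fractions G1, ES, LS and G2, with 2 libraries for each of the 8 groups. The labels do not spell out ES and LS, nor whether the libraries came from separate cultures or which part of Foxd3 is removed.

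p53 is a transcription factor that DNA damage and other stress stabilise, and it binds response elements made of a pair of related decamers near its target genes. Its targets stop the cell cycle, supply nucleotides for repair, restrain growth signalling, or start apoptosis through mitochondria, and Mdm2 closes a negative feedback loop by marking p53 for degradation. Mouse embryonic stem cells hold p53 protein at a relatively high level and divide with a short G1 phase.

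The files gave 1 column of signal for each of the 8 groups and no column for a single library, so every value is a pooled value with no SD. The signal is a CPM value (coverage scaled to sequencing depth), read as an average over the bases that hold a read, so that no value can lie below the worth of 1 read. That 1-read value implied 6.78 M to 11.2 M reads per column, with 4HT G1 the shallowest, and it was 0.147 CPM in 4HT G1 and 0.0895 CPM in EtOH G2. A level below is a multiple of the column's 1-read value. In bulk material, fewer open cells and less openness per cell cannot be told apart. The window of Foxd3 had 0.243, 0.158, 0.141 and 0.169 CPM in 4HT G1, ES, LS and G2, against 0.153, 0.195, 0.155 and 0.110 CPM in EtOH, a log2 difference of 0.10 (SE 0.084, limma adjusted p = 0.970). It does not check the depletion, because the removed part is not known here. Windows of 11 embryonic stem cell markers had a median level of 1.81 and a lowest of 1.25, with Klf2 (2.73) and Pou5f1 (2.65) the highest. Those of 9 fibroblast markers had a median level of 1.19 and a lowest of 1.11, with Fn1 (1.65) and Col1a1 (1.31) the highest. The median over all protein-coding windows was 1.35, and 10 of the 11 stem cell and 1 of the 9 fibroblast markers lay above it.

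RefSeq promoter sequences of GRCm38.p6 (the assembly of mm10) were found for 7 of the 9 genes, with 11 promoters in all, and 5 are shown because the results below refer to their regions. Each line is the 250 bases before the start, 5′ to 3′ on the gene's strand. Capitals mark exact matches, on either strand, to the motifs searched: the TATA box as TATAAA, the CCAAT box as CCAAT, the GC box core as GGGCGG, an ETS core as CCGGAA, an E2F core as GCGGGAA, a forkhead core as TGTTTAC, and the decamer of p53 response elements. The search also covered the 50 bases after the start, and overlapping matches merge into 1 run of capitals. Cdkn1a is at chr17:29090729-29090978 on the plus strand, Mdm2 at chr10:117710759-117711008 on the minus strand and Sesn2 at chr4:132510457-132510706 on the minus strand. The downstream Bbc3 start is at chr7:16310011-16310260 on the plus strand, and Bax is at chr7:45466899-45467148 on the minus strand.
Cdkn1a: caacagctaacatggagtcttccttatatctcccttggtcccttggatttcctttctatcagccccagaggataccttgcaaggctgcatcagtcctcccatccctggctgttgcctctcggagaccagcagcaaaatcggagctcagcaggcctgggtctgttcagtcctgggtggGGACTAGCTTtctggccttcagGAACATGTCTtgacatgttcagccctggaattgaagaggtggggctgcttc
Mdm2: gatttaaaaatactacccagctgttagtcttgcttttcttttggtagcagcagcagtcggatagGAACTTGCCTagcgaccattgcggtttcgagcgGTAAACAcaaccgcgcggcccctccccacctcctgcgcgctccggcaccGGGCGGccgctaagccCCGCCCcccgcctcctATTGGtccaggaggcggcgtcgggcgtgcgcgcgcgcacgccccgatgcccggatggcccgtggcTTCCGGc
Sesn2: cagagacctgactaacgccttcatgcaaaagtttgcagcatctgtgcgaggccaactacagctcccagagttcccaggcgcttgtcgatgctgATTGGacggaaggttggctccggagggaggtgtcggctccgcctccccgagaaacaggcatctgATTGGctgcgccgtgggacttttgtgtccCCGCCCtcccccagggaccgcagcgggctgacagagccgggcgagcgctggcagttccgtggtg
Bbc3, downstream start: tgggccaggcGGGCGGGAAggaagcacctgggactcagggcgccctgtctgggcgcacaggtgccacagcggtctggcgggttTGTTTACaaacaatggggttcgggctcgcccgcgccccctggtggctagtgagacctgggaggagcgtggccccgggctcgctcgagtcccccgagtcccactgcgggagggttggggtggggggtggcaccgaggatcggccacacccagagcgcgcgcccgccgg
Bax: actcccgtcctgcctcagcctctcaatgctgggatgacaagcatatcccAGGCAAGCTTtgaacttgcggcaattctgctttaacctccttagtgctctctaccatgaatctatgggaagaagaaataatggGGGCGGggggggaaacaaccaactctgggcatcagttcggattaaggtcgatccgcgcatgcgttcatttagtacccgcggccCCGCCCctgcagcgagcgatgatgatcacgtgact

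The Cdkn1a promoter held exact p53 decamers at -73 to -64 and at -51 to -42 bp from the TSS, with 12 bases between them. The second was followed directly by TGACATGTTC, at -41 to -32 bp, which has 1 mismatch to the decamer. Pairs were searched as an exact decamer within 13 bases of another with at most 1 mismatch, which had to lie outside its central C(A/T)(A/T)G. Such a pair was found in 0.358% of all 21238 protein-coding promoters of the same length, and at least 1 exact decamer in 7.37%. Mdm2 had a single decamer at -186 to -177 bp and Bax one at -201 to -192 bp, so that 3 of the 7 promoters at the TSS used held one. Outside these 7, the promoter of a downstream Sesn1 start also held one, at -173 to -164 bp. GGGCGG was in 6 of these 7 promoters and in 46.2% of all promoters. CCAAT was in 3 of 7, against 38.2% of all promoters. CCGGAA was in 1 of 7 (Mdm2), against 18.7% of all. TATAAA was in 0 of 7, against 12.6% of all, and the E2F core likewise in 0 of 7, against 5.96%. TGTTTAC was in 2 of 7, at -153 to -147 bp of Mdm2 and 23 to 29 bp downstream of the Sesn1 TSS, against 637 of all 21238 promoters, and the downstream Bbc3 promoter held it at -167 to -161 bp. These are matches of letters, not sites shown to be bound. The promoters at the TSS used ranged in GC content between 54.7% for Cdkn1a and 76.0% for Bbc3, and in CpG number between 2 for Cdkn1a and 46 for Apaf1, where the median of all promoters was 56.3% GC and 13 CpGs. The Cdkn1a values are those of its upstream start. The promoter of its downstream start, 2790 bp away, had 64.7% GC, 23 CpGs, 2 matches to GGGCGG and no p53 decamer.

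The windows of the 9 genes had a median level of 1.89, and each lay above the median of 1.35 over protein-coding windows. Apaf1, the scaffold of the apoptosome that activates caspase-9, had the highest mean level at 2.69 ± 0.60 (SD over the 8 columns, a spread across groups and not across replicates). Next came Rrm2b, the p53-induced subunit of ribonucleotide reductase, at 2.65 ± 0.45, and Sesn1, a stress-induced sestrin that restrains mTORC1, at 2.55 ± 0.64. The related sestrin Sesn2 stood at 1.998 ± 0.36. Bbc3, which encodes the BH3-only protein PUMA, stood at 1.89 ± 0.32, and Mdm2, the E3 ubiquitin ligase of p53, at 1.79 ± 0.28. The lowest were Bax, which permeabilises the outer mitochondrial membrane, at 1.60 ± 0.25, Cdkn1a, the cyclin-dependent kinase inhibitor p21, at 1.47 ± 0.061, and Zmat3, an RNA-binding zinc finger protein, at 1.42 ± 0.28.

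No gap between neighbours in this order exceeded the SD of that gap over the 8 columns. The widest gap was the one between Sesn1 and Sesn2, 0.56 with an SD of 0.57, and Sesn1 was above Sesn2 in 6 of 8 columns. Of the protein-coding windows, 97.6% had a lower level than Apaf1, 97.4% than Rrm2b and 96.9% than Sesn1, against 64.0% for Cdkn1a and 58.9% for Zmat3. Levels moved with depth: 4 of the 9 genes were lowest in 4HT G1 (the shallowest column), and 4 were highest in 4HT LS. The part of depth in the order was not tested. The windows of Apaf1, Sesn1, Zmat3 and Rrm2b also cover the start of a neighbouring gene (Ikbip, Cep57l1, 4930429B21Rik and Gm49085), and reads there count towards both.

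**Figure D1:**
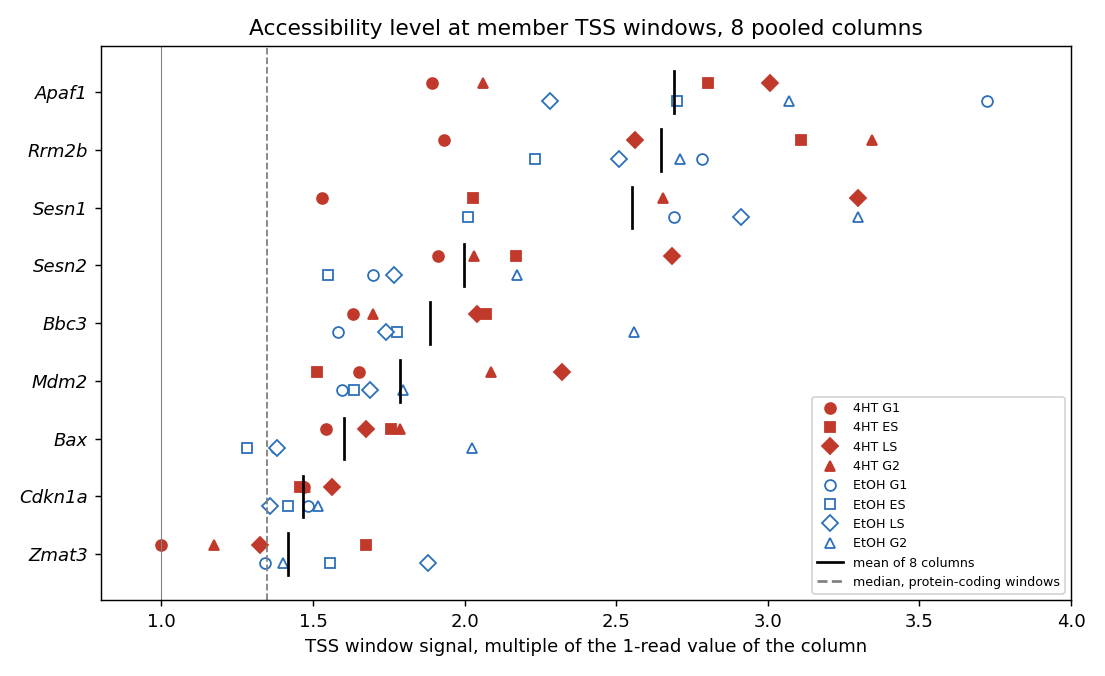
Level of the TSS window of each gene in the 8 pooled columns, as a multiple of the column's 1-read value; filled red symbols are 4HT, open blue symbols EtOH, symbol shapes the fractions, black bars the mean of 8 columns and the dashed line the median of protein-coding windows (1.35). Apaf1, Rrm2b and Sesn1 are the highest and the most spread, and Cdkn1a is the least spread, with an SD of 0.061.

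The genes differed in how many accessible regions they had and how broad these were. Rrm2b, Sesn1 and Apaf1 each had 1 broad region over the TSS, of 1112, 1216 and 1423 bp, with levels of 4.79, 4.34 and 3.97. Zmat3 also had 1 broad region, of 1134 bp, but at a level of 1.40. Sesn2, Bbc3, Mdm2 and Bax had 2 or more short regions each. Among all protein-coding windows 27.5% had 2 or more regions, and the median was 1. Sesn2 had a region over the TSS, from -233 to 91 bp (level 3.10), and one in the gene from 440 to 842 bp (level 3.31). Bbc3 had one over the TSS used, from -338 to 127 bp (2.97), and one from 470 to 696 bp (2.62), which covers the downstream RefSeq start 678 bp away.

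Mdm2 had a region over the TSS, from -257 to 174 bp (level 2.53), and one from 265 to 815 bp (2.05). The p53-responsive promoter of Mdm2 is known to lie in its first intron. Bax had its main region from -89 to 474 bp (2.16), and its remaining pair had levels of 1.22 and 1.41. Cdkn1a had only a region of 153 bp, chr17:29090895-29091047, from -84 to 68 bp, which covers the p53 decamers printed above in full. Its signal was 0.206, 0.103, 0.270 and 0.178 CPM in 4HT G1, ES, LS and G2, against 0.1004, 0.160, 0.231 and 0.205 CPM in EtOH. The values in 4HT ES and EtOH G1 were at 1 read, the groups overlapped, and with a mean level of 1.68 the region was under the minimum for testing.

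Cdkn1a has a second RefSeq start 2790 bp downstream, outside the window, and a stronger region lay over it, a comparison chosen after its values were seen. This region, from 2549 to 2893 bp, had 0.598, 0.257, 0.424 and 0.335 CPM in 4HT G1, ES, LS and G2, against 0.343, 0.436, 0.499 and 0.441 CPM in EtOH. The groups overlapped, at a mean level of 3.79, and the log2 difference was -0.08 (SE 0.21, 95% interval -0.52 to 0.35, limma adjusted p = 0.990). The Cdkn1a window thus leaves out the stronger region near this gene. A second Sesn1 start, 76865 bp downstream, had a region at a level of 2.20 and a log2 difference of 0.02 (SE 0.25).

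**Figure D2:**
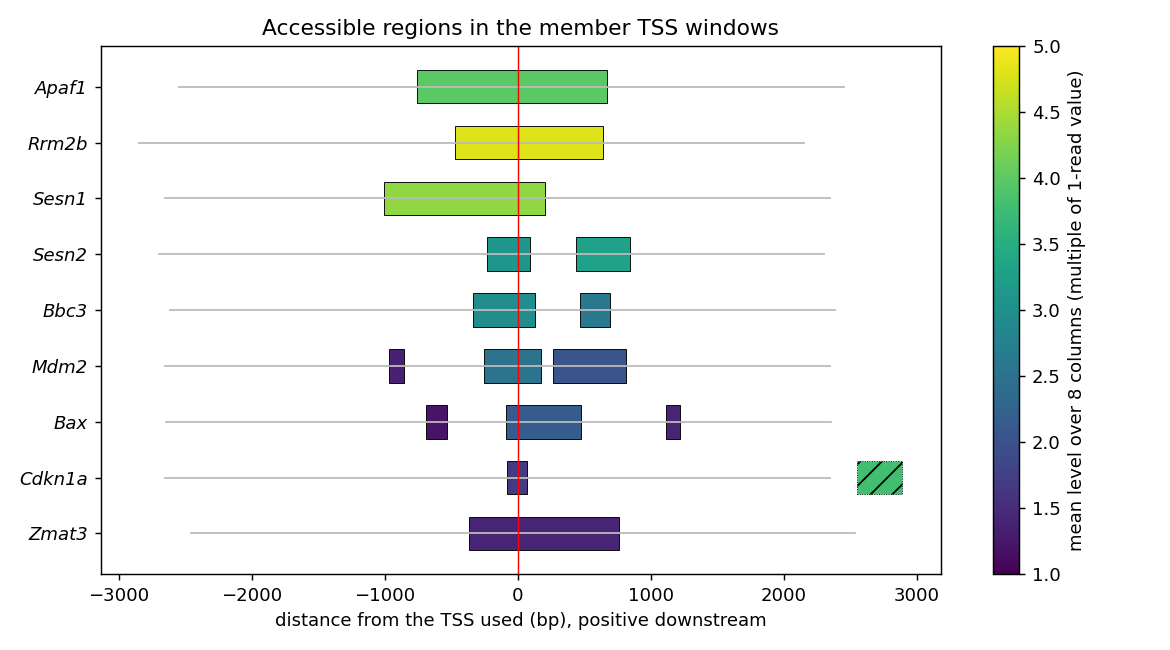
Accessible regions (boxes) in the TSS window (grey line) of each gene, by distance from the TSS used in bp, positive downstream and with genes oriented alike; box colour is the mean level over 8 columns and the red line is the TSS. The hatched box is the region over the downstream Cdkn1a start, outside the window, at a level of 3.79 against 1.68 for the region over the upstream start.

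Whether FOXD3 depletion moved these promoters was asked with a limma model of treatment and fraction on log2(signal + 0.1), centred between columns by cyclic loess, in which the 4 fractions serve as repeats of the treatment. Of the 9 windows, 0 passed the adjusted threshold of 0.05 in 4HT against EtOH, as did 0.0131% of the 15323 windows tested. At unadjusted p under 0.05, 1 of 9 passed, against 5.28% of all windows. The median log2 difference of the 9 genes was 0.04, with 6 of 9 above 0, against a median of 0.00059 and 50.2% above 0 over all windows tested. Of the 10 regions tested, 0 passed the adjusted threshold in limma, against 0.0% of all 11010 regions tested. At unadjusted p under 0.05, 2 of 10 regions passed, against 5.42% of all. The median of the 10 regions was 0.14, with 6 of 10 above 0, against a median of 0.0012 and 50.24% above 0 over all regions tested. Mdm2, Sesn2 and Bbc3 each gave a pair of these regions, so they are not separate genes.

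Sesn2 had the largest window difference among the 9 genes. Its signal was 0.282, 0.222, 0.242 and 0.229 CPM in 4HT G1, ES, LS and G2, against 0.170, 0.185, 0.216 and 0.195 CPM in EtOH. Every 4HT column was above every EtOH column in CPM, as was the case for 0.751% of all windows, and the same held after centring, as for 1.29%. In 0 of the 9 windows was every 4HT column below every EtOH column, against 0.281% of all windows as deposited and 1.25% after centring. The log2 difference was 0.23 (SE 0.099, 95% interval 0.03 to 0.43, 1.17-fold), with 0.28 in G1, 0.28 in ES, 0.28 in LS and 0.088 in G2, so 4 of 4 fractions were higher. It did not pass after adjustment (limma adjusted p = 0.942). As multiples of the 1-read value the groups overlapped, since 4HT G1 was at 1.91 and EtOH G2 at 2.17.

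Within the Sesn2 window, the region over the TSS, chr4:132510365-132510689, had a difference of the same sign. Its reads also count in the window, so the window and region values are not independent. The region overlaps most of the promoter printed above. That region had 0.385, 0.375, 0.431 and 0.423 CPM in 4HT G1, ES, LS and G2, against 0.273, 0.195, 0.290 and 0.296 CPM in EtOH. Every 4HT column was again above every EtOH column, as deposited and centred, as for 1.25% and 1.36% of all regions. The opposite, every 4HT column below every EtOH column, was found for 1.38% (as deposited) and 1.44% (centred) of all regions and for 0 of the 10. The log2 difference was 0.49 (SE 0.20, 95% interval 0.08 to 0.90, 1.41-fold, limma adjusted p = 0.890), higher in 4 of 4 fractions after centring. In multiples of the 1-read value the groups overlapped, and 4HT G1 (2.61) was below EtOH G1 (2.72), with 4HT higher in the other fractions. The region inside the gene had 0.388, 0.159, 0.352 and 0.392 CPM in 4HT G1, ES, LS and G2, against 0.250, 0.325, 0.403 and 0.573 CPM in EtOH. There 4HT was higher in G1 and lower in the other three fractions, with a log2 difference of -0.19 (SE 0.21, adjusted p = 0.973), so the pair of Sesn2 regions had opposite signs. The difference between them was not tested.

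Sesn1, the paralog, had 0.226, 0.208, 0.298 and 0.299 CPM in 4HT G1, ES, LS and G2, against 0.270, 0.240, 0.356 and 0.295 CPM in EtOH. The groups overlapped, and after centring 0 of 4 fractions were higher. Its log2 difference was -0.12 (SE 0.11, 95% interval -0.34 to 0.09, adjusted p = 0.972), of which G1 gave -0.39 and the other fractions between -0.05 and -0.02, and it was -0.037 with either G1 column left out. Its single region had a log2 difference of -0.24 (SE 0.18, adjusted p = 0.949).

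Of the genes for feedback and arrest, Mdm2 had 0.244, 0.155, 0.209 and 0.235 CPM in 4HT G1, ES, LS and G2, against 0.160, 0.195, 0.207 and 0.161 CPM in EtOH. As deposited, 4HT was higher in G1 and G2, close to EtOH in LS and lower in ES. After centring, 4HT was higher in G1 (0.18), LS (0.17) and G2 (0.28), and lower in ES (-0.12). The window difference was 0.13 (SE 0.096, 95% interval -0.06 to 0.32, adjusted p = 0.970). The region over the TSS had a log2 difference of -0.10 (SE 0.20) and the one downstream 0.32 (SE 0.23, adjusted p = 0.945). Within fractions the downstream one had 0.63 in G1, 0.15 in ES, -0.19 in LS and 0.68 in G2. Cdkn1a had 0.217, 0.149, 0.141 and 0.166 CPM in 4HT G1, ES, LS and G2, against 0.149, 0.169, 0.166 and 0.136 CPM in EtOH. Its columns overlapped throughout, and its difference was 0.04 (SE 0.080, 95% interval -0.12 to 0.20, adjusted p = 0.994), the narrowest interval of the 9 genes.

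Rrm2b, for nucleotide supply, had 0.285, 0.319, 0.231 and 0.377 CPM in 4HT G1, ES, LS and G2, against 0.279, 0.266, 0.307 and 0.243 CPM in EtOH. After centring, 4HT was higher in ES and G2 (0.30 and 0.41) and lower in G1 and LS (-0.18 and -0.11), and the log2 difference was 0.10 (SE 0.11, adjusted p = 0.979). Zmat3 had 0.147, 0.172, 0.120 and 0.132 CPM in 4HT G1, ES, LS and G2, against 0.135, 0.186, 0.230 and 0.125 CPM in EtOH. Its value in 4HT G1 was the 1-read value itself, and EtOH LS stood above all the other columns. The log2 difference was -0.16 (SE 0.081, 95% interval -0.33 to 0.00055, limma adjusted p = 0.942), and it was -0.08 when the LS column of either arm was left out. Its region, under the minimum for testing, had 0.147, 0.212, 0.158 and 0.166 CPM in 4HT G1, ES, LS and G2, against 0.141, 0.119, 0.122 and 0.134 CPM in EtOH. Every 4HT column was above every EtOH column there, in the opposite direction to the window difference. Among the regions tested, which leave this one out, that was the case for 1.25% as deposited. Moreover, 3 columns (4HT G1, EtOH ES and EtOH LS) stood at 1 read, where depth sets the value.

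Among the apoptosis genes, Bax had 0.228, 0.180, 0.151 and 0.201 CPM in 4HT G1, ES, LS and G2, against 0.138, 0.153, 0.169 and 0.181 CPM in EtOH. The groups overlapped as deposited, while after centring 4 of 4 fractions were higher in 4HT, by 0.22 in G1, 0.23 in ES, 0.06 in LS and 0.0065 in G2. The log2 difference was 0.13 (SE 0.088, 95% interval -0.05 to 0.31, adjusted p = 0.969). Bbc3 had 0.241, 0.212, 0.184 and 0.191 CPM in 4HT G1, ES, LS and G2, against 0.159, 0.212, 0.213 and 0.229 CPM in EtOH. As deposited, 4HT was above EtOH in G1 and below it in LS and G2. After centring, 3 of 4 fractions were higher in 4HT (0.17 in G1, 0.096 in ES and 0.02 in LS), and G2 was lower (-0.25). The window difference was 0.01 (SE 0.099, 95% interval -0.19 to 0.21, limma adjusted p = 0.9997). Apaf1 had 0.279, 0.287, 0.271 and 0.232 CPM in 4HT G1, ES, LS and G2, against 0.374, 0.322, 0.279 and 0.275 CPM in EtOH. 4HT was below EtOH within each fraction as deposited, but after centring LS was higher, and the difference was -0.16 (SE 0.11, 95% interval -0.38 to 0.07, adjusted p = 0.969). It was -0.52 in G1 alone, and -0.035 over the other fractions when either G1 column was left out.

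The downstream region of Bbc3, chr7:16310053-16310279, overlaps the downstream promoter printed above. It had 0.284, 0.365, 0.303 and 0.394 CPM in 4HT G1, ES, LS and G2, against 0.173, 0.231, 0.122 and 0.355 CPM in EtOH. In CPM, 4HT was higher in each fraction, although EtOH G2 exceeded some of the 4HT columns, and EtOH LS stood at the 1-read value. In multiples of the 1-read value, 4HT G2 (3.50) was below EtOH G2 (3.97), with 4HT higher in the other fractions. The log2 difference was 0.50 (SE 0.21, 95% interval 0.06 to 0.95, 1.42-fold, limma adjusted p = 0.896), and it was 0.35 with either LS column left out. The region over the TSS used had 0.384, 0.337, 0.311 and 0.388 CPM in 4HT G1, ES, LS and G2, against 0.263, 0.394, 0.364 and 0.184 CPM in EtOH. There 4HT was higher in G1 and G2 and lower in ES and LS, with a log2 difference of 0.23 (SE 0.21, adjusted p = 0.966). A pseudocount of 0.5, which draws low values together, gave 0.10 for the Sesn2 window, 0.25 for its TSS region, 0.23 for the downstream Bbc3 region and -0.067 for the Zmat3 window.

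**Figure D3:**
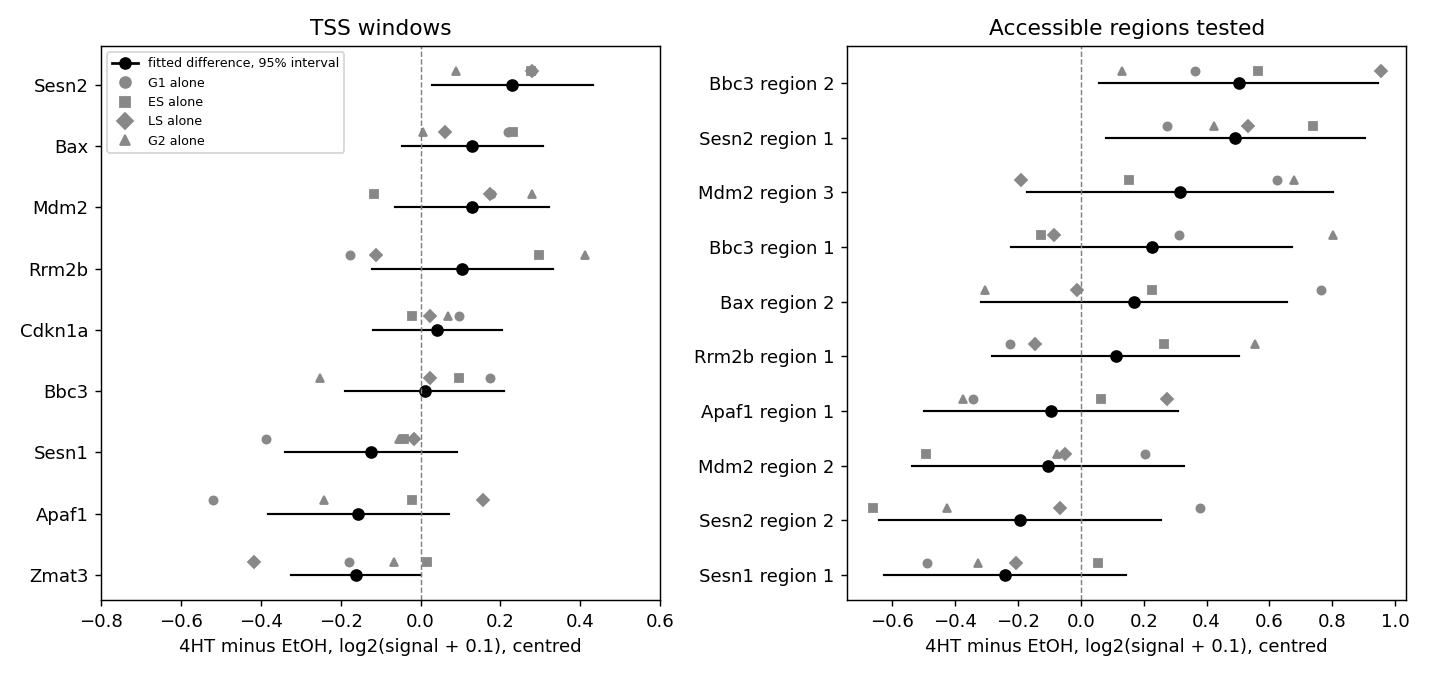
Log2 difference of 4HT minus EtOH for the 9 TSS windows (left) and the 10 tested regions (right), centred, with the fitted value and its 95% interval in black and the value within each fraction in grey. Only the intervals of the Sesn2 window (0.23), Bbc3 region 2 (0.50) and Sesn2 region 1 (0.49) lie wholly above 0, and none passes the adjusted threshold.

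The fractions were compared with G1, with the treatments as repeats. In each of ES, LS and G2 against G1, 0 of the 9 windows passed the adjusted threshold in limma, against 0.0196%, 0.0718% and 0.0457% of all windows tested. At unadjusted p under 0.05 there were 1 in ES, 1 in LS and 0 in G2, against 6.78%, 6.9% and 5.64% of all windows. The medians of the 9 genes were -0.0051 in ES, 0.03 in LS and 0.05 in G2 against G1, with 4, 5 and 7 of 9 above 0. Over all windows tested, 50.28%, 50.13% and 50% were above 0. For the 10 regions, 0 passed in each fraction, against 0.0%, 0.0% and 0.0182% of all regions, and 0 had an unadjusted p under 0.05, against 7.13%, 7.28% and 5.9% of all. Their medians were -0.07 in ES, -0.05 in LS and 0.17 in G2 against G1, with 4, 3 and 8 of 10 above 0. Over all regions tested, 49.65%, 49.58% and 49.35% were above 0.

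Zmat3 was the single window at unadjusted p under 0.05, in ES and again in LS. It differed from G1 by 0.27 in ES (SE 0.11, 95% interval 0.04 to 0.50, limma adjusted p = 0.677), with 0.37 in 4HT and 0.17 in EtOH. In LS the difference was 0.25 (SE 0.11, adjusted p = 0.681), with 0.13 in 4HT and 0.36 in EtOH, and in G2 it was 0.03. With a column left out the ES difference lay between 0.15 (without 4HT ES) and 0.39 (without EtOH ES), and the LS difference lay between 0.075 (without EtOH LS) and 0.42 (without 4HT LS). These differences are set against a 4HT G1 value that stood at 1 read. Sesn1 had 0.29 in LS (SE 0.15, adjusted p = 0.732) and 0.24 in G2 (SE 0.15, adjusted p = 0.921), both larger in 4HT (0.48 and 0.41) than in EtOH (0.11 and 0.07). Without 4HT G1, the shallowest column, they were 0.12 and 0.065, and without EtOH G1 they were 0.47 and 0.41. Apaf1 had -0.22 in G2 against G1 (SE 0.16, adjusted p = 0.921), with -0.08 in 4HT and -0.36 in EtOH, and in ES and LS its signs were opposite in the treatments. Cdkn1a lay between -0.07 and -0.06 in all 3 contrasts.

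**Figure D4:**
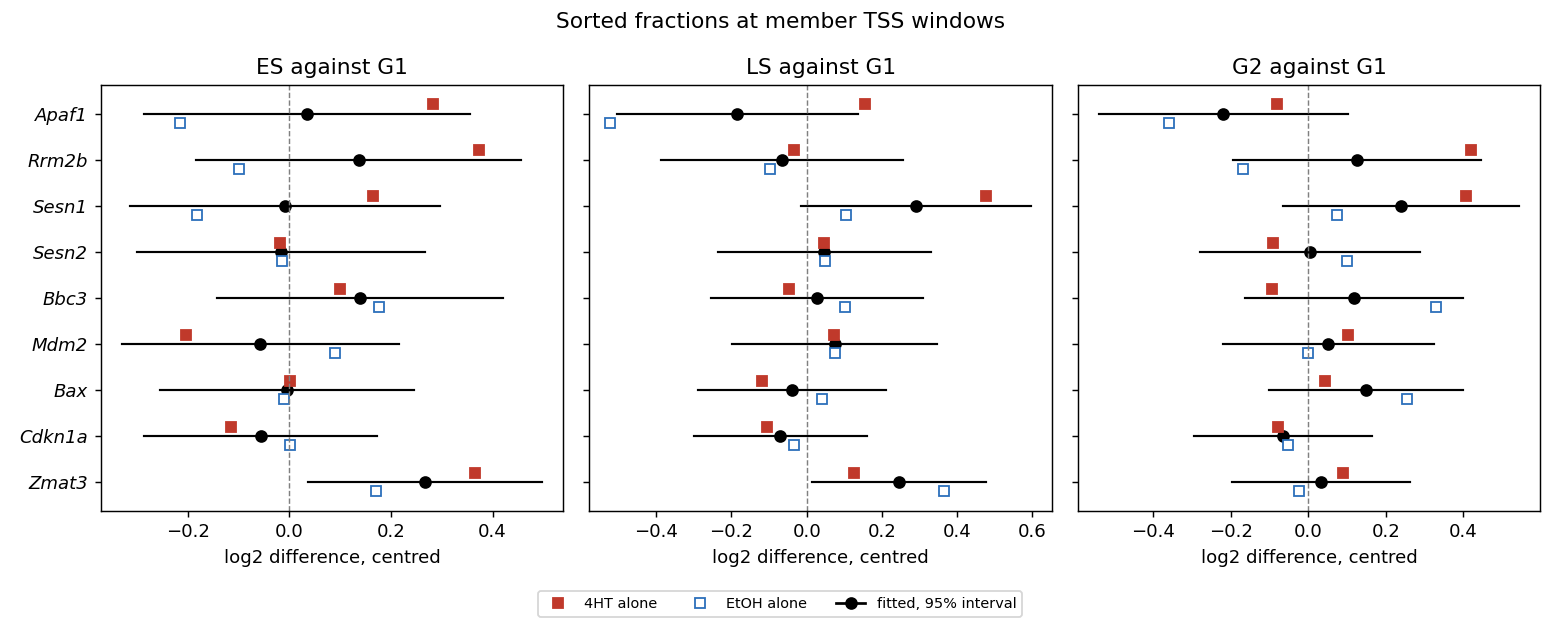
Log2 difference of ES, LS and G2 against G1 at the 9 TSS windows, centred, with the fitted value and its 95% interval in black, 4HT alone as filled red squares and EtOH alone as open blue squares. The intervals of Zmat3 in ES (0.27) and LS (0.25) lie above 0, and those of the other genes include 0.

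The 9 profiles were not alike over the 8 columns, which share their depth and sorting. Of the 36 pairs of genes, 15 had a Pearson r above 0, and the median r was -0.05. The highest were Sesn2 with Bax (0.62) and Bbc3 with Bax (0.54), and the lowest were Cdkn1a with Sesn1 (-0.73) and Mdm2 with Apaf1 (-0.65). The windows most like the mean profile of the 9 genes were those of Nek9 (r = 0.99), Eif2s3x (0.98) and Capn10 (0.97), of 10185 compared, of which 10.6% had an r above 0.5. With 8 points these are descriptions only.

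Other genes of the pathway were described from 3 lists. Of 26 other p53 targets, 25 had a window, at a median level of 1.57 over these 25, with the DNA damage genes Gadd45a (2.33) and Ddb2 (2.32) the highest. In 4HT against EtOH, 22 of them were tested, and 0 of 22 rose and 0 fell in limma, against 0.0131% of all windows. At unadjusted p under 0.05 there was 1 of 22, against 5.28% of all windows. The median difference was -0.0077, with 10 of 22 above 0. The largest were Pidd1, a scaffold that activates caspase-2, at -0.29 (SE 0.099, adjusted p = 0.886) and Tigar, a regulator of glycolysis, at -0.16 (SE 0.084, adjusted p = 0.955). The 14 regulators of p53 had a median level of 1.52 over their 14 windows, and the DNA damage kinases Atm (2.19) and Chek2 (2.01) were the highest. Of these 12 were tested and 0 passed, against 0.0131% of all windows (1 at unadjusted p under 0.05, against 5.28%). Their median was -0.04, with 4 of 12 above 0. The largest differences were those of the kinases Atr at -0.21 (SE 0.087, adjusted p = 0.942) and Atm at 0.17 (SE 0.11, adjusted p = 0.969).

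The 25 other apoptosis genes had a median level of 1.47 over their 25 windows, and Casp9 (2.26), the caspase that Apaf1 activates, and the inhibitor Birc2 (2.17) were the highest. In 4HT against EtOH, 19 were tested and 0 of 19 passed in limma, against 0.0131% of all windows (0 at unadjusted p under 0.05, against 5.28%). Their median was -0.0045, with 8 of 19 above 0. Bcl2l1, an inhibitor of apoptosis, had a log2 difference of 0.14 (SE 0.093, adjusted p = 0.969). In the fraction contrasts 0 genes of these 3 lists passed in limma either, and 0.302 was the smallest adjusted p, in ES against G1 among the other p53 targets. At unadjusted p under 0.05 in ES, LS and G2 against G1 there were 2, 0 and 1 of the 22 other p53 targets, 3, 1 and 3 of the 12 regulators, and 4, 2 and 2 of the 19 other apoptosis genes, where all windows had 6.78%, 6.9% and 5.64%. Of the marker lists, 0 of 10 embryonic stem cell markers passed in 4HT against EtOH, against 0.0131% of all windows. At unadjusted p under 0.05 there was 1 of 10, against 5.28% of all windows. The median of these markers was -0.02, with 4 of 10 above 0, and the largest differences were Dppa5a at -0.20 and Tfcp2l1 at -0.14. Likewise 0 of 3 fibroblast markers passed (0 at unadjusted p under 0.05), against the same shares of all windows, with Mmp2 at -0.13 and Col1a1 at 0.08.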

How the data were processed

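ATAC-seq signal was deposited for accessible regions and for 5000 bp TSS windows, with 8 columns that each pool the 2 libraries of a group (16 in all). The deposited signal is CPM-scaled coverage made by the authors, per the file headers. The build was mm10, per the submitters' processing notes, while the sources used here name no aligner or coverage program and do not say how replicates were handled. An interval with no read was empty, and the lowest value of a column was taken as the worth of 1 read.

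Windows (38053 distinct, of 38087) were assigned to RefSeq genes of GRCm38.p6 within 650 bp. For Bbc3 the TSS came from the promoter table, and for Rrm2b and Zmat3 it was the gene end nearest a window. Windows with a value in all 8 columns and a mean level of at least 1.3 were tested (15323), and regions with a mean level of at least 2 (11010). log2(signal + 0.1) was centred with cyclic loess (span 0.7, 3 iterations) and fitted in limma 3.58.1 under R 4.3.3 with treatment and fraction as additive terms, 3 residual degrees of freedom, a trend and robust moderation. p-values were adjusted by Benjamini-Hochberg over all tested intervals. They measure the spread among pooled columns, which need not equal that among cultures, and a treatment difference within 1 fraction is a value with no test. Folds of low intervals are understated. Before centring, windows differed between 4HT and EtOH by a median of 0.25 in G1, -0.09 in ES, -0.17 in LS and 0.10 in G2. The fit was tested on simulated data.

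The 9 genes and the gene lists were chosen with earlier results of these data known. All 9 were named, with the 2 highest and the 2 most different genes of each list and the 3 windows most like the members' mean profile. A gene that this rule names is not reported here. Alternatives were another pseudocount (0.5), no minimum level, no centring, 1 scale factor per column, each column left out, and, chosen after seeing the data, the next nearest window.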

Additional observations from a re-analysis of the deposited data

Results flagged for a closer look

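The 4HT minus EtOH difference was looked at within each set of 4 fractions, for 19 windows and regions, and in 2 sets 1 fraction stood apart from the other three by Dixon's criterion, which chance alone meets in about 1 of 20 sets. For the Sesn1 window the G1 difference of -0.39 (log2) lay below the other fractions. For the Sesn2 window the G2 difference of 0.088 lay below the other fractions. Each fraction is 1 pair of pooled columns, so neither gap was tested.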

How the results depend on the processing

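No member window or region passed the adjusted threshold in any comparison under any alternative run, and 0.44 was the smallest adjusted p among the windows and, in 4HT against EtOH, the regions. The Sesn2 window difference lay between 0.10 (pseudocount 0.5) and 0.28. Depth limits the weak intervals (Zmat3, Cdkn1a), which cannot fall below 1 read. No paired analysis was possible because each column pools 2 libraries and carries no replicate number, so the replicate block was not run. The next nearest window, where there was one (Zmat3 and Apaf1), changed no sign.

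Counts of windows passing in 4HT against EtOH (2) were 0 with no minimum level, 0 without centring, and 0 to 4 with a column left out. In ES against G1 (3) they were 1, 0, and 0 to 16. In LS against G1 (11) they were 4, 0, and 3 to 18. In G2 against G1 (7) there were 4 without centring, and 3 to 27 with a column left out. Regions passing in ES against G1 (0) were 1 without centring and 1 with 1 scale factor. The columns behind the extremes of 16, 18 and 27 were EtOH G1, 4HT LS and EtOH G1.

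Signs reversed without centring for Mdm2 in G2 (-0.016), Sesn2 in G2 (-0.047), Zmat3 in G2 (-0.074) and Apaf1 in ES (-0.067), with 1 scale factor for Rrm2b in LS (0.0065) and Apaf1 in ES (-0.0038), and with a pseudocount of 0.5 for Sesn2 in G2 (-0.0031), all against G1. With a column left out, signs also reversed in 4HT against EtOH for Bbc3 (-0.044 to 0.098), Mdm2 region 2 (-0.21 to 0.025), Rrm2b region 1 (-0.036 to 0.22) and Bax region 2 (-0.030 to 0.33). In ES against G1 they did for Mdm2 (-0.22 to 0.11), Rrm2b (-0.051 to 0.32), Sesn1 (-0.18 to 0.17), Sesn2 (-0.050 to 0.016), Bax (-0.073 to 0.063) and Apaf1 (-0.21 to 0.28). In LS they did for Rrm2b (-0.25 to 0.12), Bbc3 (-0.081 to 0.14), Bax (-0.099 to 0.021) and Apaf1 (-0.43 to 0.058). In G2 they did for Mdm2 (-0.050 to 0.15), Rrm2b (-0.079 to 0.33), Sesn2 (-0.092 to 0.099), Zmat3 (-0.031 to 0.095), Bbc3 (-0.057 to 0.29) and Apaf1 (-0.46 to 0.022). The cause was not tested. Leaving out a column assumes that the lone column of its fraction varies like the others.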
